A study of Mus musculus with 5 samples.

Results

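The cells described here were oligodendrocytes sorted from the midbrain of the Nkx2-2 line, chosen as the cells of that sample with at least 500 CPM (counts scaled to a common library total) of Mog, which encodes a glycoprotein of the outer myelin surface. The rule took 245 of the 327 cells of the sample (74.9%, exact 95% interval 69.9 to 79.5) and 245 of the 1473 cells of the series. Mog therefore chose the cells, and every level below describes the chosen cells, with no test. Each group held 1 sample, so there were no replicates of a condition, no p-values were computed, and the spread is given over cells and over blocks of wells.

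Oligodendrocytes wrap axons of the central nervous system with myelin, a stack of membrane held together by proteins such as myelin basic protein and rich in cholesterol and galactolipids. They arise from precursors that express Pdgfra and Cspg4, pass through a premyelinating stage marked by Enpp6 and Bmp4, and mature under factors such as Sox10 and Myrf. Nkx2-2, the gene whose Cre labelled these cells, is itself used by the oligodendrocyte lineage as well as by progenitors of the ventral neural tube.

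The series profiled single cells from 3-month-old mice by Smart-seq2, a full-length method without molecular identifiers, after fluorescence sorting into plates. The oligodendrocytes came from Nkx2-2Cre R26TrapC mice, with 7 females pooled in 1 sample. A Cre that acts from the driver's first use marks cells with a past as well as a present use of Nkx2-2, and no label tied a cell to an animal. The comparison group came from FoxJ1CreERT2 R26TdT mice (10 animals, 5 females and 5 males), in which ependymal cells, the ciliated lining of the ventricles, were sorted from the spinal cord, the aqueduct of the midbrain and the walls of the lateral ventricle and of the third ventricle. Both lines carried a Cre allele and a reporter at the Rosa26 locus. Cre allele, reporter and sex of the animals differed together between the lines and cannot be told apart from cell type. The project code in the sample titles differed too, as only part of the Foxj1 line midbrain wells shared that of the Nkx2-2 line. Region was shared with the Foxj1 line midbrain sample alone.

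The other 82 cells of the Nkx2-2 line sample were named from fixed marker sets as 28 precursor-like, 21 astrocyte-like, 18 ependymal-like, 11 Sspo-high (with markers of the subcommissural organ, a secretory gland of the aqueduct roof) and 4 oligodendrocyte-like cells below the Mog threshold. The ependymal cells of the Foxj1 line numbered 904, with 307 from the midbrain, 114 from the cord, 240 from the lateral ventricle and 243 from the third ventricle. The oligodendrocytes held 354705679 reads in genes, with a median of 1358225 per cell (range 108417 to 7182157), against medians of 879201 in the other 82 cells and 715589 in the ependymal cells. Their median of 4245 detected genes became 3342 after thinning each cell to 100000 reads, against 3599 in precursor-like, 1947 in astrocyte-like and 4068 in Foxj1 line midbrain ependymal cells. No cell name was repeated and no 2 cells held the same counts.

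The labelled type held in its markers. The rule set the lower bound of Mog, which had a median of 3555 CPM per cell, with 5% of cells below 1592 and 5% above 6315. Mag, a myelin glycoprotein that faces the axon and was no part of the rule, reached 100 CPM in 244 of 245 oligodendrocytes, in 3 of 82 other cells of the sample and in 8 of 904 ependymal cells. Cnp, Mbp and Cldn11 reached that level in all 245, Mobp in 244, and Mal and Ermn in 241 each. Cnp at this level did not separate the cells, as 793 of 904 ependymal cells and 47 of the other 82 reached it. Mbp reached it in 158 ependymal and 13 other cells, Mal in 62 and 15, and Mobp in 31 and 4. Cldn11 did so in 3 and 5, and Ermn in 5 and 3. Opalin, a transmembrane protein of mature oligodendrocytes, reached it in 196 cells and 0 of the other 82, and Ptgds, the prostaglandin D2 synthase, in 206 cells and 17 of the others. The 4 marker genes thus did not mark the same cells: Mog and Mag covered nearly all, and Opalin and Ptgds left out 49 and 39 cells.

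**Figure D1:**
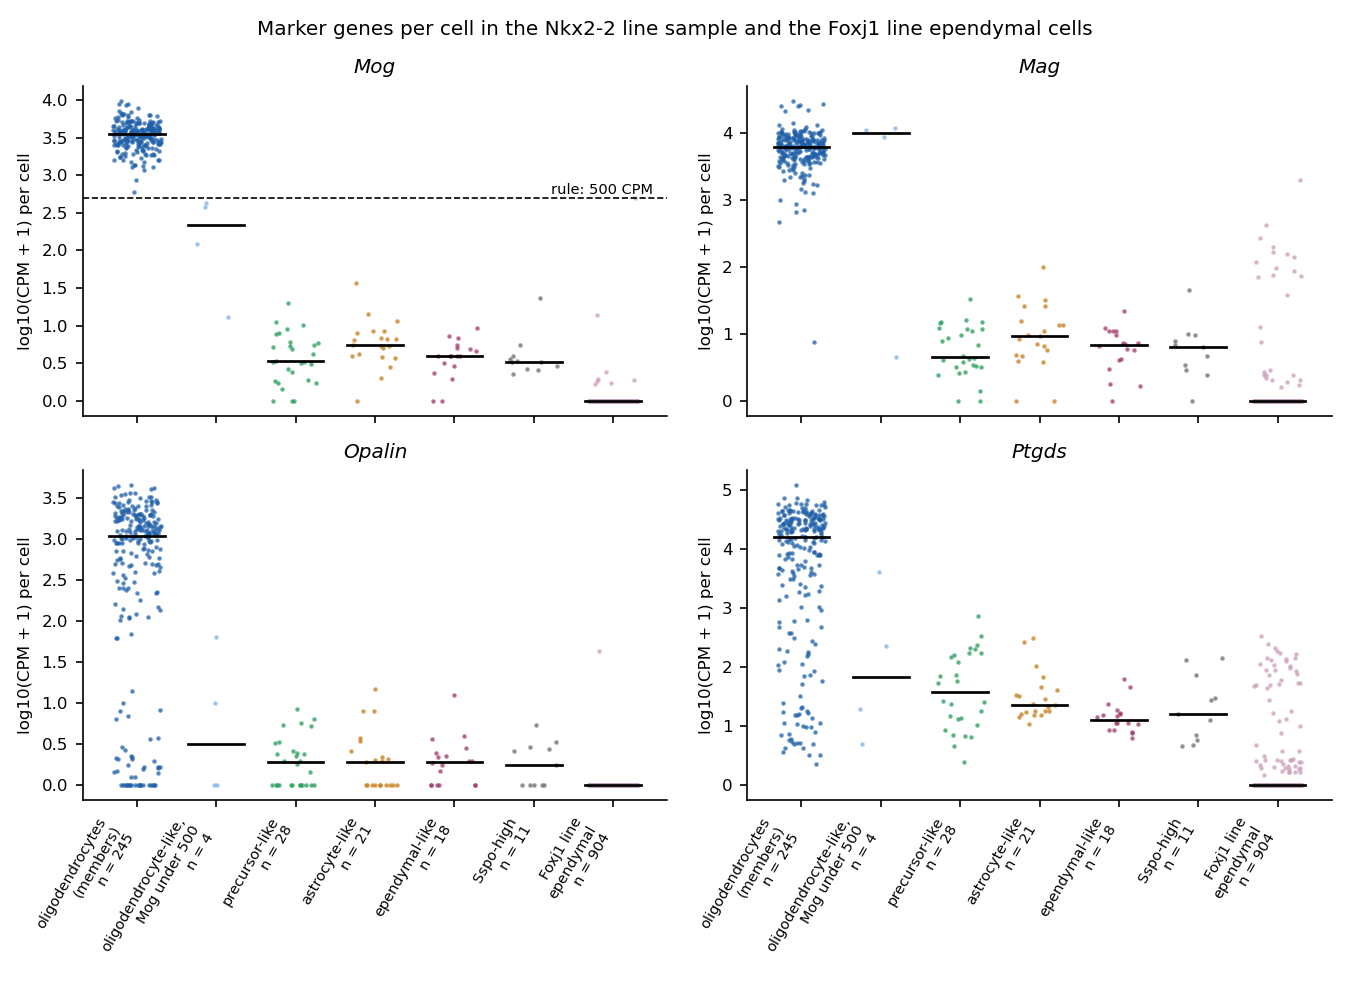
Mog, Mag, Opalin and Ptgds in single cells, on a log10(CPM + 1) axis, with 1 point per cell, a bar at each group's median and a dashed line at the 500 CPM of the rule. Mag filled the same cells as Mog, whereas Opalin and Ptgds ran from below 10 CPM to their highest levels among the oligodendrocytes.

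Few cells lay near the threshold. Of the 327 cells, 72 had under 10 CPM of Mog, 7 had 10 to 100, 3 had 100 to 500, 2 had 500 to 1000 and 243 had 1000 or more. The lowest cell inside held 601 CPM of Mog with 3215 CPM of Mag and 3300 of Enpp6, an enzyme of newly formed oligodendrocytes. The next held 850 CPM of Mog with 6.70 of Mag, 10.5 of Mobp, 1430 of Bmp4 and 1688 of Enpp6. Just outside, 2 cells held 424 and 379 CPM of Mog with 10990 and 11640 of Mag, and another held 121 CPM of Mog with 2635 of Bmp4 and 1279 of Enpp6. These 3 cells counted among the other 82 and raised the myelin levels of that group, so levels of its classes are given beside its sum.

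The 250 bases before the start of the marker genes are shown because their transcripts set these cells apart together while Opalin and Ptgds varied within them. Sequences are from RefSeq on GRCm38.p6, 5′ to 3′ on the gene's strand, with capitals at each match to ACAAAG or its reverse complement CTTTGT, one form of the sequence that SOX family factors such as Sox10 bind.
Mag, chr7:30914923-30915172, minus strand: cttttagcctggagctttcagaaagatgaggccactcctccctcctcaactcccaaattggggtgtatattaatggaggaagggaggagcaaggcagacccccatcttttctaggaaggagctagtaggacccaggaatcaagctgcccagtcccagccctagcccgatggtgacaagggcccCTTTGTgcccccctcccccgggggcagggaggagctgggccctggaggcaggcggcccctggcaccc
Opalin, chr19:41077114-41077363, minus strand: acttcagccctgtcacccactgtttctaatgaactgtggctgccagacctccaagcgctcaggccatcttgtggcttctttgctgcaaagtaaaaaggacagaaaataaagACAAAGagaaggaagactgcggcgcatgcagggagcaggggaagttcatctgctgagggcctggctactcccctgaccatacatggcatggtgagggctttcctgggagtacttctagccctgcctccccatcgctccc
Mobp, chr9:120149492-120149741, plus strand: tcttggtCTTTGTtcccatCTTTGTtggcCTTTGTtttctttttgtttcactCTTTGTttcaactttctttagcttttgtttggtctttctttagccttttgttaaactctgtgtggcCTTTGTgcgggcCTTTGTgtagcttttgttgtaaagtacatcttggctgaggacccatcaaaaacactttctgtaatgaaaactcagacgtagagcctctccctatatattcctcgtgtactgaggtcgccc
Mog, chr17:37023399-37023648, minus strand: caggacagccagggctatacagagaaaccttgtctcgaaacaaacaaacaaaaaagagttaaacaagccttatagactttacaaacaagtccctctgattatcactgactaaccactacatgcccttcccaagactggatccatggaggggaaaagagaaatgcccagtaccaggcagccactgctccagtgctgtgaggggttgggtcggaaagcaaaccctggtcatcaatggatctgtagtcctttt
Ptgds, chr2:25469750-25469999, minus strand: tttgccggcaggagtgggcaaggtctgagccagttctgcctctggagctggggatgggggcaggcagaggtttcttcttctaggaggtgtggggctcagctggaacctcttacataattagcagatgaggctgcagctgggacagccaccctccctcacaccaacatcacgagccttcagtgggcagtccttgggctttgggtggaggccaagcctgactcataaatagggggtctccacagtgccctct

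The Mag window (the second of 3 annotated starts) held 1 match, 67 bases before the start. The window of the first start overlaps it and held the same match, 126 bases before that start. The window of the third start held 0. The Opalin window held 1 match at 139 bases and the Mobp window 6 matches between 243 and 120 bases. The windows of Mog and Ptgds held these letters on neither strand. Of 17 compact myelin genes listed, 12 had a promoter in the table, with 19 starts, and 6 of the 12 had a match (36.8% of their starts). Starts of a gene can share a match, as at Mag, and shares of starts count such a match repeatedly. The string occurred in 12.5% of all 14847 promoters of this length and in 14.2% of those of genes at least 4-fold higher in the oligodendrocytes than in ependymal cells. A second string, CAGCTG, an E-box of the kind that Olig factors and other basic helix-loop-helix proteins bind, reads the same on both strands and shares no position with the first. It occurred at 1 of the 12 genes and in 12.5% of all promoters. A match is a description of letters in this window and not a site.

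The 25 genes with the most reads held 28.2% of all reads in genes. Among them, Ptgds held 16959 CPM, with 11666 to 20490 over the 5 blocks of wells (its exact 95% Poisson interval was 16945 to 16972). Such intervals cover counting error only. Other high genes were Fth1, the ferritin heavy chain, with 16722.5, Cnp, a phosphodiesterase of myelin channels, with 13623, Tubb4a, a tubulin, with 12953, and Mbp with 12395. Further genes among the 25 were Apod, a lipid carrier, with 8775 CPM, Mal with 7984, Mobp with 7931, Mag with 7178, Car2, a carbonic anhydrase, with 7163, Qdpr with 7131, Cldn11, the tight-junction claudin of myelin, with 6504, Enpp2 with 6112, Sept4 with 6013 and Cryab with 4834. The 25 also held the mitochondrial transcripts mt-Rnr2 with 14705.5 CPM, mt-Cytb with 11726, mt-Co1 with 6709 and mt-Nd1 with 4949, and Malat1 with 9662, Cd81 with 5713 and Actb with 5194.

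Longer transcripts draw more reads in this method, so order between genes was read per kilobase of exon. Exon length was the union over all annotated transcripts of a gene. It can exceed the transcript in use and put a gene such as Mbp too low, so this order is uncertain. On that scale Ptgds led with 18080 CPM per kilobase, while Fth1 stood at 10733, Tubb4a at 5814 and Cnp at 5780, and Mbp, with 8123 bases of exon, stood at 1526. The 16 compact myelin genes in the table took 14.4% of the reads of the oligodendrocytes, 0.887% in precursor-like cells and 0.341% in midbrain ependymal cells of the Foxj1 line.

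Levels were compared as summed counts per group, scaled to CPM, and a gene was counted as higher or lower at a difference of at least 4-fold with at least 10 CPM in the higher group. Against the other 82 cells, 10833 genes were compared, of which 517 (4.77%) were higher and 2958 (27.3%) lower, with a median log2 ratio of -0.79 over all genes. Against the ependymal cells (the mean of the 4 regions, each weighted equally), 957 of 10527 genes (9.09%) were higher and 2760 (26.2%) lower, with a median of -0.53. With the median of all genes set to 0, a choice made after the values were seen, the split against the other cells was 886 higher and 2326 lower, so that 27.6% of the differing genes were higher in place of 14.9%. List medians below are to be read against these medians, and ratios are described with no test because the rule sorted the cells by a transcript of the same libraries.

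Genes with high levels in the oligodendrocytes had a few reads in other cells of the same sample. The 17 genes with at least 1000 CPM in the oligodendrocytes and less than 0.1% of that level in Foxj1 line midbrain ependymal cells were used to gauge this, a choice made with the values known. In the ependymal-like cells of the Nkx2-2 line they stood at 0.0579% to 0.105% of the oligodendrocyte level (median 0.0854%). Their source was not tested, and levels of a few CPM of such genes in the other cells are not read as expression.

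Most compact myelin genes stood higher than in both comparison groups. All 16 in the table passed 10 CPM: 12 were higher than in the other cells and 0 lower (median log2 ratio 3.91), and 15 were higher than in ependymal cells (median 9.07). Mobp, a basic protein of compact myelin, stood at 7931 CPM (blocks 6691 to 9281) in the oligodendrocytes, 6.83 in precursor-like, 39.1 in astrocyte-like and 9.62 in ependymal cells. Cldn11 stood at 6504 CPM in the oligodendrocytes against 5.79 in precursor-like and 2.32 in ependymal cells. Its lowest block, 4678, lay above 133, the highest of blocks 1 to 4 of the other cells. Block 5 of the other cells had under 10 cells and was left out. A smaller set was shared with precursors: Pllp, a membrane protein of myelin, stood at 2826 CPM against 3263 in precursor-like and 0.817 in ependymal cells. Plekhb1, which binds membrane lipids, stood at 2021 CPM, 870 in precursor-like and 1723 in ependymal cells, the 1 list gene under 4-fold against ependymal cells.

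Of 27 genes in the list of lipid and sterol synthesis, 9 were higher and 0 lower against the other cells (median 0.82), and 19 higher and 0 lower against ependymal cells (median 2.99). Ugt8a, which makes galactosylceramide, stood at 1645 CPM (blocks 1334 to 2188), 226 in precursor-like and 1.73 in ependymal cells. Fa2h, which hydroxylates its fatty acids, stood at 944 CPM, 94.9 in precursor-like and 1.27 in ependymal cells. Gal3st1, which makes sulfatide, stood at 113 CPM, 35.3 in precursor-like cells and at 0 reads in all 904 ependymal cells, at least 27294-fold higher against a floor of 3 reads over that group.

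Aspa, which frees acetate from N-acetylaspartate for lipid synthesis, stood at 930.5 CPM in the oligodendrocytes, 0.959 in precursor-like and 27.4 in ependymal cells. The chain-lengthening enzyme Elovl7 stood at 300 CPM against 1.65 in precursor-like cells, while Elovl6 stood at 202 against 212. Cholesterol enzymes were near the precursor level: Hmgcs1 stood at 574.5 CPM against 577.5, and Cyp51 at 271 against 354. Ugt8a, Fa2h and Aspa thus stood 2.86 log2 units or more above precursor-like cells, and neither of these sterol enzymes stood above them.

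Of 29 genes of axon contact, 11 were higher and 3 lower against the other cells (median 0.88), and 18 of 28 were higher and 1 lower against ependymal cells (median 2.99). Ermn, a cytoskeletal protein of late myelination, stood at 2136.5 CPM, 1.65 in precursor-like and 1.76 in ependymal cells. Hapln2, a link protein of the nodal matrix, stood at 961 CPM, and Cntn2, an adhesion molecule of the juxtaparanode, at 731, against 0.767 and 11.1 in precursor-like cells. Unc5b, a netrin receptor, stood at 168 CPM, and Sema4d, a membrane semaphorin, at 403, against 0.115 and 9.59 in precursor-like cells. In contrast, Lingo1, a membrane protein known as a brake on differentiation, stood at 0.493 CPM against 81.5 in precursor-like cells.

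**Figure D2:**
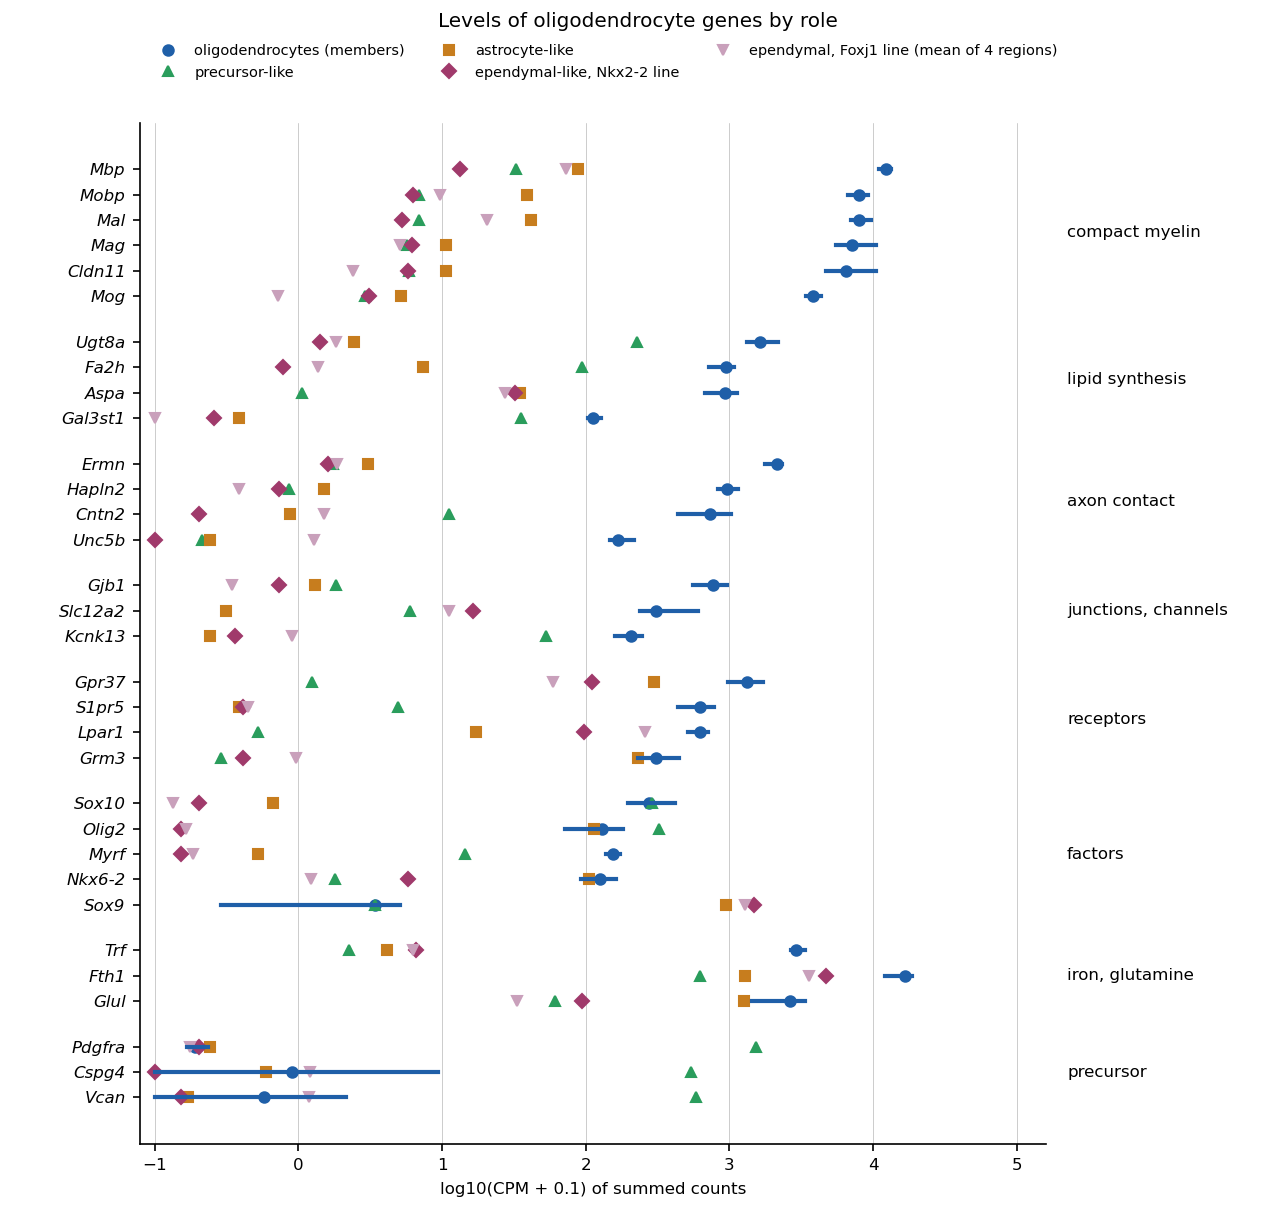
Levels of genes grouped by role, as log10(CPM + 0.1) of summed counts in the oligodendrocytes (blue, with a line from the lowest to the highest of 5 blocks), the precursor-like, astrocyte-like and ependymal-like cells of the same sample, and the Foxj1 line ependymal cells. The compact myelin, lipid and axon contact genes drawn lay to the right in the oligodendrocytes, whereas Sox10 and Olig2 overlapped or lay below the precursor-like cells.

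Gap junction genes differed between the glial types. Gjb1, a connexin of oligodendrocytes, stood at 770 CPM in these cells, against 1.21 in astrocyte-like cells. Gja1, the connexin of their astrocyte partners, stood at 0.927 CPM in the oligodendrocytes, 5012 in astrocyte-like and 866 in ependymal cells. Gja1 was among the markers that named the astrocyte-like cells, so its level there was set in part by that naming. The lowest block of the oligodendrocytes for Gjb1, 560, lay above 55.4, the highest of blocks 1 to 4 of the other cells.

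Among channels and transporters, Slc12a2, a sodium-potassium-chloride cotransporter, stood at 308 CPM against 17.7 in the other cells and 11.1 in ependymal cells. Slc24a2, a sodium-calcium exchanger, stood at 262 CPM against 5.61 and 0.649, and Tmem63a, a mechanosensitive channel, at 865 against 38.3 and 12.4. Kcnj10, the inward rectifier Kir4.1, differed little: 468 CPM against 452 in the other cells and 338 in ependymal cells. Its partner subunit Kcnj16 stood at 0.736 CPM against 205 and 173, and the sodium pump subunit Atp1b3 at 1173 CPM beside 0.426 of Atp1b1. Over the list, 8 of 23 genes were higher and 9 lower against the other cells (median 0.85), and 11 of 21 higher and 6 lower against ependymal cells (median 2.31).

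Of 25 receptor genes with at least 10 CPM in either group, 6 were higher and 14 lower than in the other cells (median -4.92, but 2.80 over the genes with at least 50 CPM in either group), and 7 of 13 were higher and 2 lower than in ependymal cells (median 2.13). Gpr37, an orphan receptor that restrains differentiation, stood at 1332 CPM (blocks 974.5 to 1725) against 1.15 in precursor-like and 59.5 in ependymal cells. S1pr5, a sphingosine-1-phosphate receptor, stood at 620.5 CPM against 4.83 and 0.346, and Lpar1, a lysophosphatidic acid receptor, at 629 against 0.422 and 259. Grm3, a metabotropic glutamate receptor, stood at 310 CPM, 0.192 in precursor-like and 233 in astrocyte-like cells, and Adora1 at 193 against 267 in precursor-like cells. Gria2 and Gria3, subunits of AMPA receptors, stood at 4.10 and 0.544 CPM against 507 and 461 in precursor-like cells.

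Lineage factors were shared with precursors in part. Of 23 listed factors, 5 were higher and 6 lower against the other cells (median -0.05), and 11 of 21 were higher and 4 lower against ependymal cells (median 2.77). Sox10 stood at 278 CPM (blocks 195 to 417) against 289 in precursor-like cells and 0.0346 in ependymal cells. Olig1 and Olig2 stood at 1615 and 130 CPM against 4335.5 and 325 in precursor-like cells. Myrf, the factor that switches on myelin genes, stood at 154 CPM against 14.3, Nkx6-2 at 126.5 against 1.69, and Zfp536 at 137 against 16.2. Sox9, the factor named in the title of the series, stood at 3.34 CPM in the oligodendrocytes, 3.34 in precursor-like, 946 in astrocyte-like and 1275 in ependymal cells. Of the NFI factors also named there, Nfia stood at 129 CPM against 389 in precursor-like and 296 in ependymal cells, and Nfix at 163 against 233 and 138. Nkx2-2, the gene of the driver, stood at 16.3 CPM with a read in 40.8% of oligodendrocytes, against 47.4 in precursor-like and 1.78 in ependymal cells.

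Precursor genes were low throughout. All 17 precursor markers with 10 CPM in either group were lower than in the other cells (0 higher, median -7.11). The same markers named the precursor-like cells, so their high levels there were set largely by that naming. Pdgfra, the growth factor receptor of precursors, stood at 0.0902 CPM against 1530 in precursor-like cells, and Cspg4, a proteoglycan of precursors, at 0.809 against 543. Gpr17 and Serpine2 were the markers of this list above 10 CPM in the oligodendrocytes, at 34.0 and 19.3 against 1521 and 3762. Of the Gpr17 reads in the oligodendrocytes, 71.0% lay in 3 cells.

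Markers of newly formed oligodendrocytes were mixed, with 2 of 12 higher and 5 lower than in the other cells (median -1.38), and 6 of 10 higher and 0 lower than in ependymal cells (median 2.57). Enpp6 stood at 253 CPM with a read in 49.8% of cells, and Bcas1, a marker of early myelination, at 282 with a read in 86.9%. Bmp4 stood at 4.22 CPM, with 99.8% of its reads in 3 cells. A mean over the 15 markers of the list had a median of 2.38 and a 95th percentile of 3.58 log2 units, and 4 cells stood apart at 7.66 to 8.76, with the next at 5.25. The highest of them, which held 850 CPM of Mog, had 6335 CPM of Gpr17, 7064 of Fyn, a kinase of early process growth, 2168 of Neu4 and 1430 of Bmp4. The other 3 held 142 to 613 CPM of Gpr17, 0.517 CPM or less of Neu4 and 0 of Bmp4, with 3215 to 24574 CPM of Mag. These cells were singled out after their values were seen.

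Of 24 genes of lactate and energy transport with at least 10 CPM in either group, 2 were higher and 11 lower than in the other cells (median -1.79), and 3 of 22 were higher and 11 lower than in ependymal cells (median -1.64). Slc2a1, the glucose transporter GLUT1, stood at 336 CPM, 125 in precursor-like, 1176 in astrocyte-like and 2929 in ependymal cells, and its highest block, 421, lay under the lowest ependymal block, 1668. Ldha and Ldhb, the lactate dehydrogenase subunits, stood at 22.8 and 187 CPM against 310 and 343 in precursor-like and 109 and 245 in ependymal cells. Slc16a1, the lactate transporter MCT1, stood at 166 CPM, 37.0 in precursor-like and 136.5 in ependymal cells. Glul, glutamine synthetase, stood at 2659 CPM (blocks 1445.5 to 3383) against 1254 in astrocyte-like, 61.5 in precursor-like and 33.0 in ependymal cells.

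Of 28 genes of iron, zinc and redox with at least 10 CPM in either group, 4 were higher and 9 lower than in the other cells (median -0.60). Against ependymal cells, 5 of 27 were higher and 10 lower (median -0.39). As a list they lay near all genes, whose medians were -0.79 and -0.53 and of which 27.3% and 26.2% were lower. Trf, transferrin, stood at 2923 CPM against 2.15 in precursor-like and 6.21 in ependymal cells, and Fth1 at 16722.5 against 626 and 3554. Gstm7 and Gstp1, glutathione transferases, stood at 726 and 689 CPM against 41.7 and 166 in ependymal cells. Mt3 and Mt2, metal-binding proteins, stood at 24.5 and 20.9 CPM against 4626 and 1243 in ependymal cells and 246 and 46.6 in precursor-like cells. Mt1, another metallothionein, stood at 404.5 CPM against 4207 in ependymal cells but 237 in precursor-like cells. Levels of Ftl1, Gapdh and Stmn1, genes with many near-identical copies in the genome, are uncertain because reads may be split between copies.

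Of 37 cytoskeletal genes, 15 were higher and 2 lower than in the other cells (median 0.88), and 20 higher and 4 lower than in ependymal cells (median 2.08). Tubb4a stood at 12953 CPM against 1016 in precursor-like and 3.16 in ependymal cells. Tppp, a tubulin-polymerising protein of oligodendrocytes, stood at 829.5 CPM against 64.3 and 48.5. Mapt (tau) stood at 824 CPM against 353.5 and 2.76, Bin1, a membrane-bending adaptor, at 1392 against 306 and 28.7, and Sept4, a septin that stabilises myelin, at 6013 against 104 and 112. Map2, a dendritic microtubule protein, stood at 11.6 CPM against 266 in precursor-like and 155 in ependymal cells.

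Of 21 genes of MHC class I, interferon and complement, 2 were higher and 13 lower than in the other cells (median -2.12), and 2 higher and 10 lower than in ependymal cells (median -1.87). B2m, the light chain of MHC class I, stood at 62.9 CPM against 361 in precursor-like and 533 in astrocyte-like cells, and Ifitm3, an interferon-induced membrane protein, at 2.15 against 1002 in ependymal cells. The 2 higher genes were Il33, a nuclear alarmin, with 523 CPM, and Il12rb1, a cytokine receptor chain, with 37.2. Of 33 immediate early and dissociation genes, 2 were higher and 19 lower than in the other cells (median -2.38), and 3 of 32 higher and 12 lower than in ependymal cells (median -1.56). Fos stood at 1187.5 CPM against 3601.5 in precursor-like and 2018 in ependymal cells, and Atf3 at 8.99 against 7.40 and 143. Arc, an activity-regulated gene, stood at 214 CPM against 0.115 in precursor-like, 0.496 in astrocyte-like and 32.7 in ependymal cells, with a read in 63.3% of oligodendrocytes (155 cells) and at least 100 CPM in 118.

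Secreted carriers of the neighbouring glia were low. Apoe stood at 709 CPM (blocks 160.5 to 933.5) against 37364 in astrocyte-like and 7830 in ependymal cells, Clu at 63.5 against 13780 and 10318, and Sparcl1 at 38.3 against 14510 and 2112. Growth factors of the list were higher in part: Fgf1 stood at 216 CPM against 16.3 in precursor-like and 21.2 in ependymal cells, and Tgfa at 175 against 198 and 1.57. Of 19 listed genes, 4 were higher and 8 lower than in the other cells (median -0.57), and 6 of 18 higher and 6 lower than in ependymal cells (median 0.45).

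The list of signalling genes of Notch, Wnt and BMP was low as a set. It also held the FGF receptor Fgfr2, so its counts are not those of these pathways alone. Of 35 genes, 3 were higher and 21 lower than in the other cells (median -2.97). Against ependymal cells, 5 of 31 were higher and 17 lower (median -2.21). Hes5, a Notch target, stood at 0.0141 CPM against 33.0 in precursor-like and 1017 in astrocyte-like cells, and Id2, a BMP target, at 9.84 against 133 and 2123. The genes higher than in the other cells were Nkd1, a Wnt feedback inhibitor, with 117 CPM, Smad7, a BMP and TGF-beta inhibitor, with 68.5, and Fgfr2 with 377. Fgfr2 and Fgfr3 differed in opposite directions: precursor-like cells held 0.384 CPM of Fgfr2 and 65.2 of Fgfr3, and the oligodendrocytes 377 and 0.324. Erbb3, a neuregulin receptor, stood at 100.5 CPM against 47.6 in precursor-like cells.

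Position factors were low, and many were not detected. Of the 39 in the table, 19 had 10 CPM in the oligodendrocytes or the ependymal cells, and 16 of these were lower and 2 higher than in ependymal cells (median -11.01). Otx2, a factor of forebrain and midbrain, stood at 0.116 CPM against 122.9 in the ependymal-like cells of the same sample and 65.9 in the Foxj1 line, and Nkx6-1 at 0.00282 against 40.0 and 47.5. Zic1, Zic2, Otx1, Foxa1, Irx2, Six3, Emx1, Emx2, Hoxa2, Hoxa9, Hoxb3, Hoxb5, Hoxb7 and Hoxc9 were listed at 0 reads, which allows up to 0.00846 CPM at 3 reads. The exceptions were Nkx6-2 and Nkx2-9, with 38.1 CPM of the latter in the oligodendrocytes and 0.00748 in ependymal cells.

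**Figure D3:**
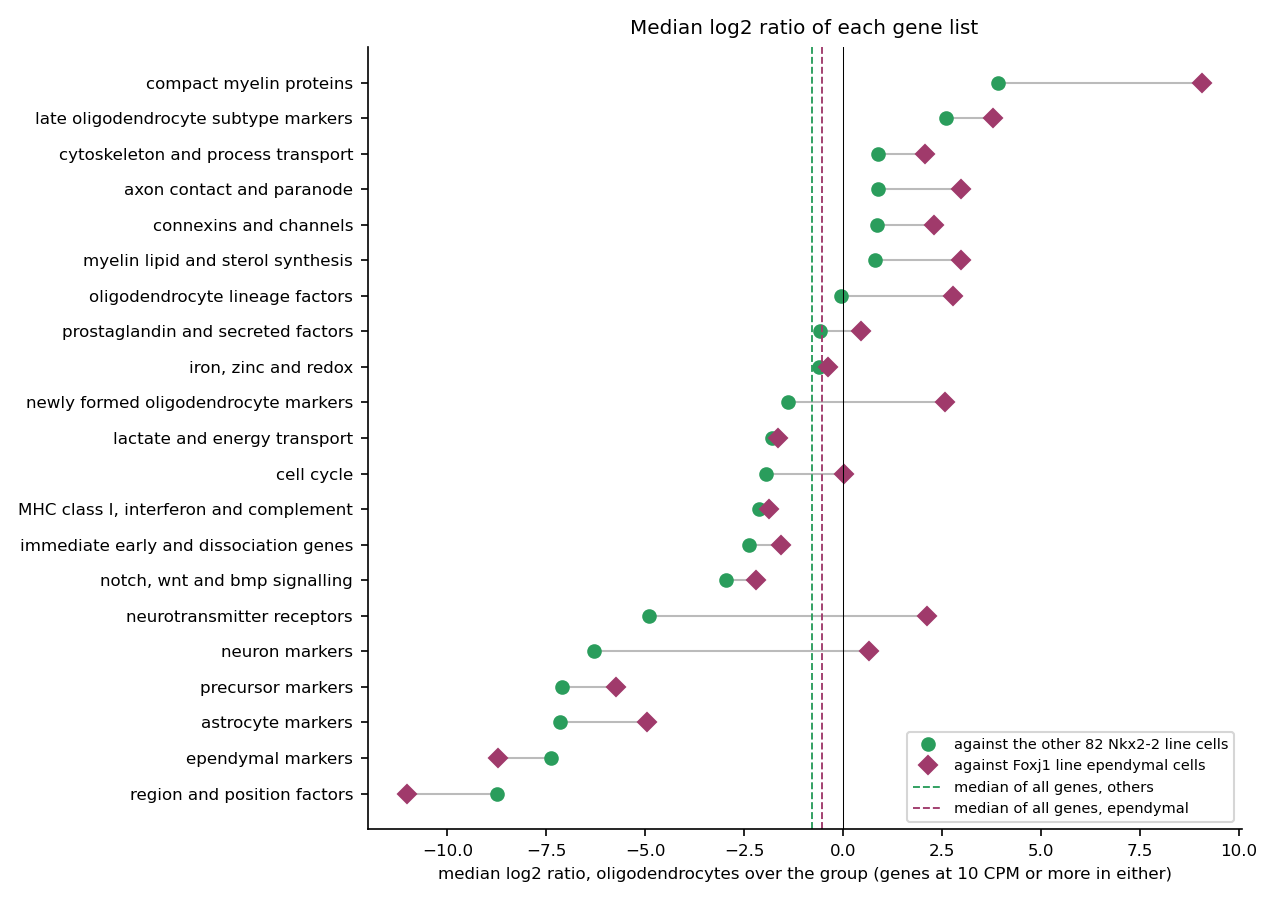
Median log2 ratio of each gene list, oligodendrocytes over the other 82 cells (green circles) and over Foxj1 line ependymal cells (purple diamonds), for genes with at least 10 CPM in either group. Dashed lines mark the medians over all genes, -0.79 and -0.53; compact myelin proteins stood at 3.91 and 9.07, and region and position factors at -8.76 and -11.01.

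Genes were also ranked by ratio among those with at least 100 CPM in the higher group, a read in at least 50% of its cells and no overlap between blocks. Blocks are parts of a sample and not replicates. Blocks with under 10 cells of a group were left out, so the other cells had blocks 1 to 4 only. How many genes met the limits on level and reads alone was not counted. Against the other cells, 504 genes met the whole rule on the higher side. The 10833 genes compared included genes under the limits on level and reads, so they are no base for this count. Cyp2j12, a cytochrome P450, led with 211 CPM (blocks 135 to 308) and 3 reads in the other 82 cells. It was followed by Acsl1, an acyl-CoA synthetase, with 156 CPM against 0.157, the troponin Tnni1 with 108 against 0.170, then Opalin, Mog, Smco3, Ptgds, Galnt6, Spock1, Spock3, Pex5l and Cldn11. Mog was used by the rule that chose the cells. Of the Cyp2j relatives in the table, Cyp2j6 and Cyp2j9 stood at 169 and 85.7 CPM in the oligodendrocytes and at 379 and 378 in precursor-like cells, and reads shared between such relatives leave the single levels uncertain. On the lower side 530 genes met the rule. They were led by Pdpn (podoplanin) with 0.0141 CPM against 148, the syndecan Sdc3 with 0.0564 against 178, and Pxdc1 with 0.0677 against 164.

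Against ependymal cells, 718 genes met the rule on the higher side, again with no count of the genes within the limits on level and reads. Insc, an adaptor of spindle orientation, led with 153 CPM (blocks 102 to 184), a read in 70.6% of oligodendrocytes and 1 read in all ependymal cells, where precursor-like cells held 5.33. Cyp2j12, with 3 ependymal reads, was next, then Klhl4 with 216 CPM and 5 reads, Gal3st1, Cdk18, a kinase, with 106 CPM and 4 reads, St18, a zinc-finger factor, with 103 CPM and 5 reads, Opalin, Sox10, Nipal4, Mog, which the rule used, Ppp1r14a and Ptgds. On the lower side 1068 genes met the rule. Ldb2, Myl9 and Fas led with 1, 3 and 1 reads over all oligodendrocytes against 121, 344 and 111 CPM in ependymal cells, followed by Slc14a2, a urea transporter, with 0.0169 CPM against 627, and the cilium gene Ccdc33 with 0.0113 against 383.5.

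Markers of other cell types were checked as whole lists in the oligodendrocytes. All 15 ependymal markers were lower than in both comparison groups, and all 15 astrocyte markers were lower than in the other cells. The precursor, astrocyte and ependymal lists had also named the comparison cells. These counts thus followed largely from that naming and are no check on the oligodendrocytes. The 15 astrocyte markers summed to 132 CPM (91.7 to 162 over blocks), with 2 above 10 CPM (Slc1a3 and Aldoc), and the 17 precursor markers to 87.3 (39.9 to 210). The 15 ependymal markers summed to 63.5 CPM (26.4 to 115), with Foxj1 above 10. Single cells with many such reads weighed on these sums. Per cell, the astrocyte, precursor and ependymal sums had medians of 22.5, 4.94 and 4.28 CPM. The highest cells held 1592, 10719 and 4150. Of 9 microglia markers 1 passed 10 CPM and 2 were at 0, of 6 endothelial and mural markers Kdr passed, of 14 neuron markers Tubb3 and Ddc passed and 2 were at 0, and the 4 choroid plexus markers summed to 0.102. Markers of another class stood above the marks set for single cells in 10 of the 245 oligodendrocytes, 1 of which also met the mark for Sspo-high. Leaving out these 10, a choice made after the values were seen, gave 523 genes higher and 2984 lower than in the other cells.

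Foxj1, the regulator of motile cilia and the driver of the other line, had reads in 93 oligodendrocytes (38.0%, or 28.2% after thinning), at least 10 CPM in 64 and at least 100 in 19, with 20.4 CPM over all (19.9 without the 10 cells above). Its level was 3.90% of the ependymal level, and the 14 other ependymal markers stood at 0.00909% (Tekt1) to 1.49% (Spef2) of theirs, with a median of 0.222%. Of the 235 cells that remained without those 10, 61 had at least 10 CPM of Foxj1 and 148 had 0 reads. Of the 14 other ependymal markers, 9 stood higher and 5 lower in the cells with Foxj1. Among those higher were Dnah11 at 0.5515 CPM against 0.00482, Ak7 at 4.98 against 0.873 and Dynlrb2 at 4.28 against 2.17. Among those lower were Tmem212 at 3.04 against 4.12 and Pltp at 0.259 against 1.70. The 10 cells had been left out in part by these same markers. The comparison thus cannot show whether Foxj1 and the other markers were read in the same cells. Precursor-like cells held 0.0384 CPM of Foxj1. The annotation places Rnf157 954 bases away from Foxj1 (chromosome 11, 116330704 to 116335399, minus strand, GRCm38) on the same strand, and Foxj1 stood at 19.1 CPM in the 222 oligodendrocytes without an Rnf157 read and at 33.1 in the 23 with one. Foxj1 and the genes of the next paragraph were singled out after their values were seen.

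Ddc, which makes dopamine and serotonin from their precursors, stood at 98.2 CPM with reads in 111 oligodendrocytes (45.3%), against 0.0767 in precursor-like and 0.0826 in ependymal cells, while Th, the enzyme before it, had 0 reads. An antisense gene of unknown function overlaps Ddc, and reads of the 2 strands cannot be told apart in an unstranded count. Il12rb1 had reads in 70 cells and 36 with at least 100 CPM, and Wfdc18, a small secreted inhibitor, in 64 and 34, against 0.0767 and 0 CPM in precursor-like cells. Kdr, an endothelial receptor, had reads in 28 oligodendrocytes (18.9 CPM) and in 0 of the other 82 cells. Grm7, a metabotropic glutamate receptor, stood at 56.7 CPM with reads in 73 cells. Each of these genes was thus present in a minority of oligodendrocytes, and their levels without the 10 cells with other markers differed little, for example 97.1 CPM for Ddc and 37.1 for Il12rb1.

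Among the oligodendrocytes themselves, 1591 genes with a mean of at least 100 CPM and a read in at least 25% of cells had a median coefficient of variation over cells of 1.02 (5% of genes below 0.544 and 5% above 1.48). Among the steadiest were mt-Co1 with 0.322 and Cfl1, an actin-severing protein, with 0.345. Mbp had 0.373 and Mog, whose lower tail the rule removed, 0.390. The most variable were Nr4a1 with 5.00, Tcf7l2, a Wnt pathway factor, with 4.83, Mpzl1 with 3.62, Junb with 3.13, Egr1 with 3.07 and Klk6, a myelin protease, with 2.90. These were followed by Rnf122, Dusp1, Dnajb1, Fos, S100b, Cntn1, Anxa5, Rab33a and Hist1h1c. Immediate early genes (Nr4a1, Junb, Egr1, Dusp1 and Fos) were 5 of the 15 most variable, each with a median of 0 to 4.57 CPM and a highest cell between 3029 and 19936. The share of such genes among the 1591 was not counted, and Arc, of the same list, ranked only 155 with 1.37.

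**Figure D4:**
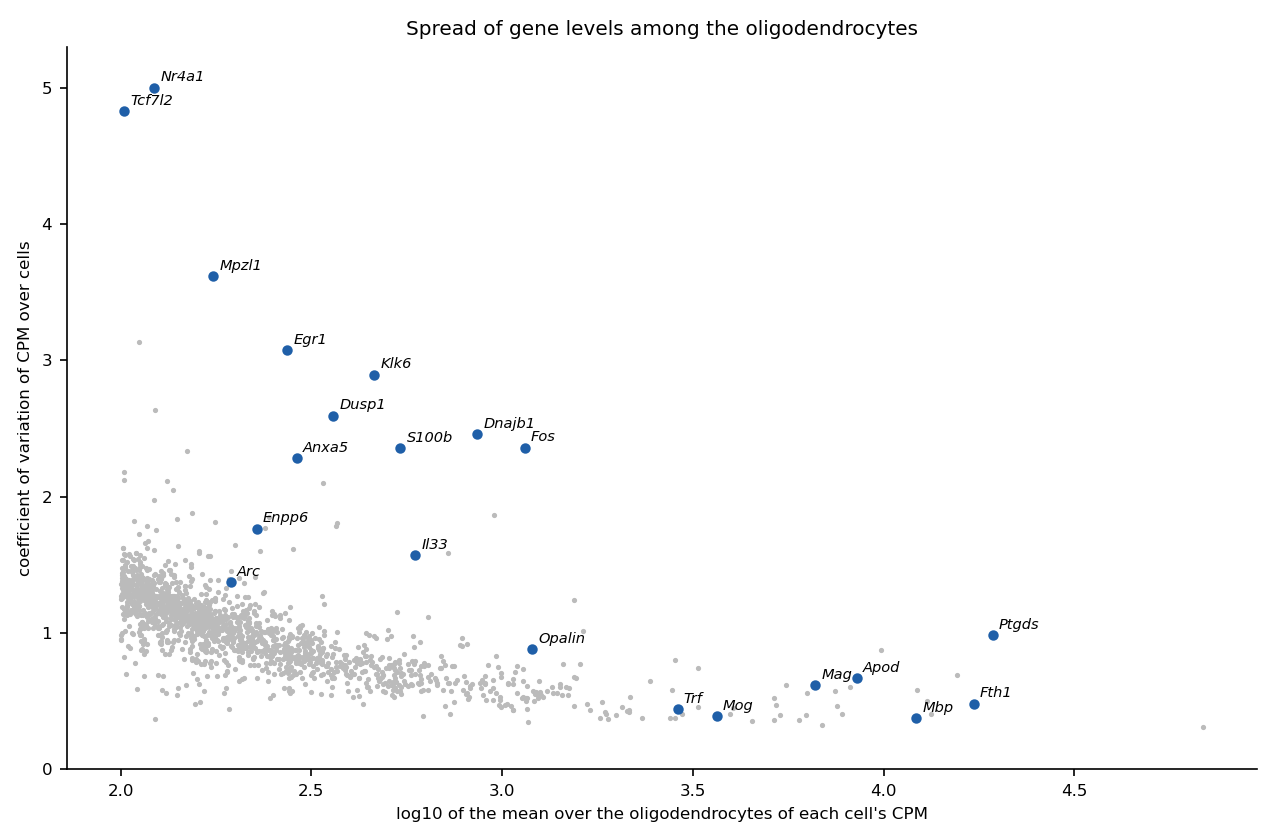
Coefficient of variation of CPM over the 245 oligodendrocytes against the log10 mean for 1591 genes (grey), with named genes in blue. Mbp and Mog lie low at the right, and immediate early genes, Tcf7l2 and Klk6 lie above genes of like mean.

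Markers of late oligodendrocyte subtypes were among the high genes: 20 of 36 were higher and 2 lower than in the other cells (median 2.60), and 24 higher and 1 lower than in ependymal cells (median 3.80). Several of them varied jointly among the cells. Of the 245 cells, 171 (69.8%) held at least 100 CPM of Opalin and Ptgds and less of Klk6, 32 (13.1%) held Klk6 alone, and 18 (7.35%) held all 3. Another 9 held Ptgds and Klk6, 8 held Ptgds alone, 6 held Opalin and Klk6, 1 held Opalin alone, and 0 held none. Ptgds itself had 187 cells at or above 1000 CPM, 19 between 100 and 1000 and 39 below 100. Over the 245 cells, Spearman's rho with Opalin was highest for Cd9 (0.68), Ptgds (0.65), Cd81 (0.58) and Cd63 (0.57) and lowest for Hapln2 (-0.64), Selenop (-0.60), Pmp22 (-0.59) and Klk6 (-0.58). Of 2387 genes, 90% lay between -0.25 and 0.15. The cells share 1 sample and differ in depth, with which Opalin had a rho of -0.09, and no p is given for these cells of 1 sample.

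**Figure D5:**
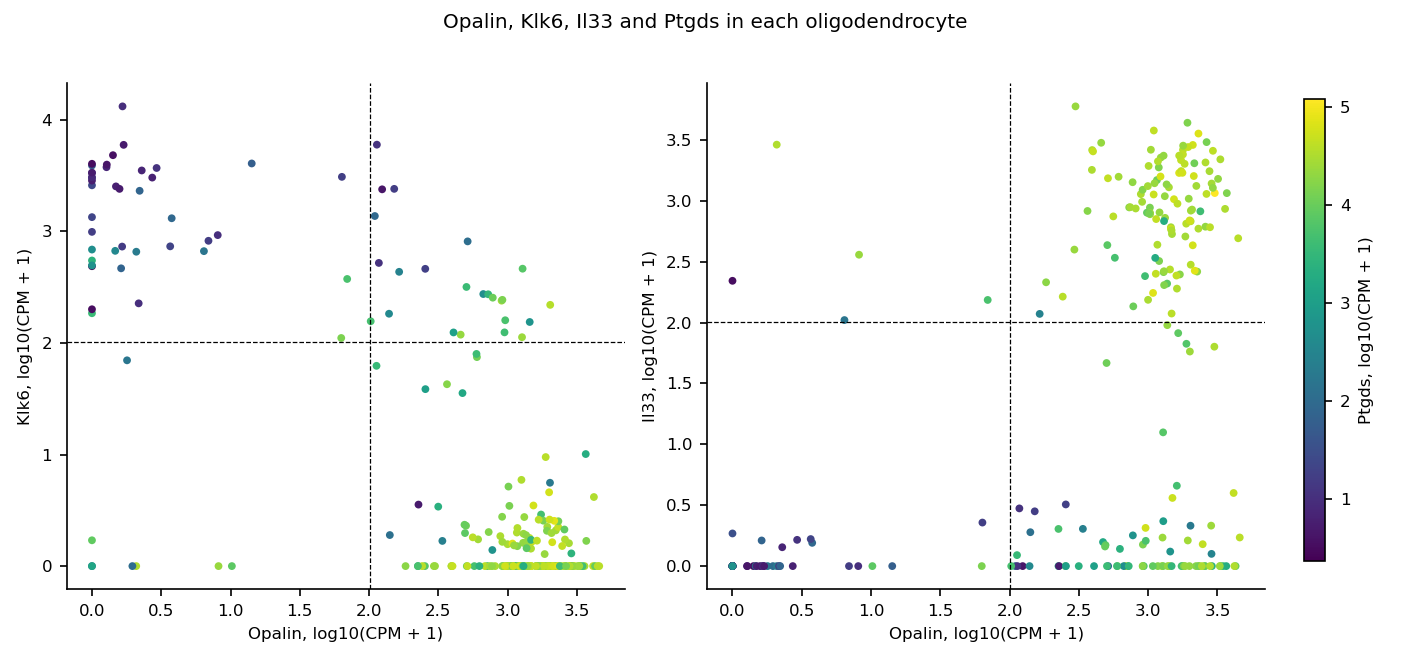
Klk6 (left) and Il33 (right) against Opalin in each of the 245 oligodendrocytes on log10(CPM + 1) axes, coloured by Ptgds on the same scale, with dashed lines at 100 CPM. Most cells with little Opalin held Klk6 and little Il33, and 171 cells lay in the lower right of the left panel with Ptgds at or above 100 CPM.

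The 49 oligodendrocytes with under 100 CPM of Opalin, a split chosen after the values were seen, were compared with the 196 at or above it. They held more Klk6 (2387 CPM against 87.5), S100b, a calcium-binding protein (2685 against 151), Anxa5, an annexin (1473 against 92.6), Uchl1, a ubiquitin hydrolase (279 against 14.1), Hopx (150 against 10.1), Rab37 (201 against 7.57) and Nkx2-9, a homeobox factor (154 against 4.17). Apod, Selenop, a selenium carrier, and Enpp6 went with them, at 15261 against 6876, 4097 against 1007 and 665 against 133 CPM. Lower in these cells were Ptgds (993 against 21635), Il33 (46.2 against 662), the adhesion molecules Mcam (19.2 against 212) and Cntn1 (22.7 against 187), and the tetraspanins Cd9 (194.5 against 946) and Cd63 (44.5 against 186).

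Among myelin genes, Mbp stood at 12731 CPM in the cells with little Opalin and 12297 in the others, Mobp at 7880 and 7946, and Mag at 7099 and 7201. Mal and Cldn11 stood lower, at 4031 against 9142 CPM and 4576 against 7069, and Pmp22 higher, at 1555 against 588. The factors Sox10 and Myrf stood at 267 and 281 CPM and at 142 and 157. Cells with little Opalin occurred in all 5 blocks, with shares of 23.3%, 17.0%, 15%, 21.1% and 33.3%. They were slightly deeper (median 1536617 against 1331340.5 reads) and had more genes after thinning (3825 against 3194.5), and the part of this in the differences was not tested.

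Blocks of 96 consecutive cell numbers, which the labels do not state to be plates, differed little for most genes. Over blocks 1 to 4, the highest block exceeded the lowest by a median of 1.47-fold, 1406 of the 1591 genes differed by under 2-fold, and 6 by 4-fold or more: Tcf7l2 (6.94), Nr4a1 (5.11), Lars2 (5.08), Map1a (4.93), Hdac5 (4.10) and Anxa5 (4.03). Tcf7l2 stood at 47.3, 205, 142 and 29.6 CPM in these blocks, and the cells singled out above for markers of newly formed oligodendrocytes held 6718 CPM in block 2 and 3343 in block 3. Klk6 stood at 1216 CPM in block 1 and at 318 to 442 in blocks 2 to 4. The mitochondrial ribosomal RNA mt-Rnr2 stood at 6002 CPM in block 2 and at 15608 to 18601 in blocks 1, 3 and 4.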

How the data were processed

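Single cells of 5 samples, 1 per group, were sequenced by Smart-seq2. The authors deposited a table of read counts for 16347 genes in 1473 cells, made with STAR 2.3.1o on mm10 per the submitters' processing notes; the counting tool and its strand setting are not given in the sources used here. The deposited second table held log2 values that equalled log2(count / size factor + 1) within 0.01 for 100% of values; it served only as an alternative. Column prefixes for forebrain and tanycytes were matched by anatomy to the samples of the lateral ventricle and of the third ventricle. Counts were summed per group and scaled to CPM (Python 3.11.15, numpy 2.4.6, scipy 1.17.1, pandas 2.3.3). Log2 ratios carried no pseudocount. Differences of at least 4-fold with at least 10 CPM in the higher group were counted, and the ratio code was tested on simulated data.

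Cells with Mog below the threshold and cells of the Foxj1 line were named by the highest mean log2(CPM + 1) over marker sets. A mean of at least 5 with 3 markers detected was required. The precursor, astrocyte and ependymal sets were the same marker lists whose levels are given above. No doublet caller was run. Genes were named from fixed lists, the 25 most abundant, the largest ratios (at least 100 CPM, a read in 50% of cells, blocks not overlapping), the 15 largest coefficients of variation, and the extreme rank correlations with Ptgds and Opalin. Members, lists and rules were chosen with earlier results of these data known. Of the gene names, 1023 altered by R were repaired and 16027 matched GENCODE. Alternatives were other Mog thresholds, levels, folds, weightings, comparison cells and left-out blocks or cells. Some genes that belong to the lists are not reported here by name.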

Additional observations from a re-analysis of the deposited data

How the results depend on the processing

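No paired analysis was possible because each group held 1 sample. Against the other cells, 517 genes were higher and 2958 lower; leaving out 1 block of wells gave 514 to 538 and 2960 to 3007. With no minimum level, which compares 16032 genes, the numbers were 1074 and 5096, and with at least 50 CPM, which compares 5200, 1219 were lower. A limit of 2-fold over the same 10833 genes gave 1065 and 4779. Against precursor-like cells alone 785 were higher, and with the median of all genes set to 0, 886. The authors' normalized values gave 772 higher and 2396 lower.

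Against ependymal cells, 957 were higher and 2760 lower, and 946 to 976 and 2778 to 2809 without 1 block. No minimum level gave 5445 lower, at least 50 CPM gave 1362 lower, and 2-fold gave 1763 higher. Midbrain ependymal cells alone gave 1044 higher and 2744 lower. Those of them that shared the project code of the Nkx2-2 line, by cell number, gave 1218 and 2692. With the latter, 6 list medians moved by at least 1 log2 unit and 17 by less. Centring raised the share of higher genes among those counted from 25.8% to 34.9%, and the authors' values gave 1288 higher and 2395 lower.

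Directions reversed for Bmp4 (log2 ratio 10.60) at a Mog threshold of 100 CPM, for the median of the receptor list (2.80) at 50 CPM, and against precursor-like cells alone for Tenm4 (6.87), Mt1 (0.77), Btg2 (0.29), Gadd45g (0.49), Foxj1 (9.06) and Sspo (8.41). Thinning moved the median of detected genes from 4245 to 3342. A Mog threshold of 100 or 1000 CPM took 248 or 243 cells, and any 3 of the 4 markers at 100 CPM took 212. The 1 sample per group, the wells without animals and the low reads of abundant genes in other cells of the sample limit these levels.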
